A study of Mus musculus with 24 samples.

Results

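The miR-15/16 family was followed in the small RNA of transgenic mouse hearts. Its 7 rows were chosen by name from the 568 rows of the small RNA table: mmu-mir-15a, mmu-mir-15b, mmu-mir-16-1, mmu-mir-16-2, mmu-mir-195, mmu-mir-322 and mmu-mir-497. The rule used names only, but it was set with earlier results of these data known. All 7 rows reached the mean of 1 FPKM (fragments scaled by transcript length and library size) that admitted 280 rows to the test.

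The study compared hearts of transgenic mice that carry a mutated or a normal human allele of MYL2, the gene of the ventricular regulatory light chain of myosin, and treated mutants with a virus carrying the M7.8L shRNA. The small RNA libraries came from 11 hearts, and polyA libraries from 13 hearts that include these 11. The groups were mutants given the AAV9 shRNA virus (4 small RNA and 4 polyA libraries), mutants given a control AAV9 virus without this shRNA (3 and 3), mutants given no virus (2 and 3) and mice with the normal allele given the control virus (2 and 3), called wild type here. Virus was injected at 3 days of age, hearts were taken at 4 months, and all mice were on a CD1 background. Every group therefore carries a human transgene, and the genotype field of the labels read RLC-47K L6 in every sample, so the genotype was taken from the sample names. The sources used here do not give the promoter that drives the transgene. Whole hearts were sequenced, so a change in cell makeup and a change in RNA per cell cannot be told apart.

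MicroRNAs are cut from hairpin precursors and guide a silencing complex to messenger RNAs that pair with their seed. The family is defined by a shared seed, and its members have been described as repressors of cyclins, checkpoint kinases and the survival factor BCL2. In mouse hearts miR-195 rises after birth and has been linked to the time when cardiomyocytes leave the cell cycle. In the sequences below, which are shown because the shared seed is what makes the rows a family, the seed (bases 2 to 8) is in capitals. They are RefSeq 5p sequences annotated on GRCm38.p6, written 5′ to 3′, and all 7 rows were matched.

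miR-15a-5p: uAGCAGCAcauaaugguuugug
miR-15b-5p: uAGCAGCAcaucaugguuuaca
miR-16-5p: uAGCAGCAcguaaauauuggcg
miR-195a-5p: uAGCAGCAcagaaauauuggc
miR-322-5p: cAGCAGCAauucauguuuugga
miR-497a-5p: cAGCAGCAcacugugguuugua
miR-503-5p: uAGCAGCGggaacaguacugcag

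The 7 rows gave 6 distinct 5p sequences with the seed AGCAGCA, because mmu-mir-16-1 and mmu-mir-16-2 give the same miR-16-5p. miR-503-5p, made from the same stretch of the X chromosome as miR-322, has the seed AGCAGCG and is shown for contrast. Outside the seed the members differ. Aligned from the first base, miR-16-5p and miR-195a-5p were identical at 19 of 21 positions and miR-15a-5p and miR-15b-5p at 18 of 22, whereas miR-16-5p and miR-497a-5p were identical at 11 of 22. RefSeq holds 4 other entries with the seed AGCAGCA (miR-195b, miR-6342, miR-6353 and miR-6419), and 0 of them matched a row of the table.

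The members lie at 4 places in the genome. On GRCm38.p6, miR-15a-5p is at chr14:61632075-61632096 and miR-16-5p of mmu-mir-16-1 at chr14:61631936-61631957, both on the minus strand within Dleu2, a long noncoding RNA gene. miR-15b-5p at chr3:69009775-69009796 and the second copy of miR-16-5p at chr3:69009918-69009939 are on the plus strand within Smc4, which codes for a condensin subunit. miR-497a-5p at chr11:70234730-70234751 and miR-195a-5p at chr11:70235062-70235082 lie beside each other on the plus strand. miR-322-5p is at chrX:53054306-53054327 on the minus strand, within C430049B03Rik.

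Several libraries stand apart in ways that touch the family. Of the 13 polyA libraries, the hMyl2 row was above 0 only in those of shRNA hearts 5, 6 and 7 (229, 420 and 317 FPKM), not in replicate 8. A row for the shRNA itself had no value above 0, so neither row tests the knockdown. Taking a library with Ddx3y above 5 FPKM as male, shRNA replicates 5 to 7 were male and replicate 8 female, all 3 mutants with control virus were female, and both wild-type small RNA libraries were male. Sex therefore differed between the groups. In the small RNA fit a sex covariate can rest only on groups that hold both sexes. These are the shRNA hearts, replicate 8 against 5 to 7, and the untreated hearts, replicate 9 against 11. In polyA the wild-type group also holds both sexes. The summed FPKM of 7 cardiomyocyte microRNA rows was 71755978 in shRNA replicate 8, against 16489766 to 20078214 in the other 3 shRNA libraries, 44652680.0 to 62458238 in mutants with control virus and 13514300.0 to 16508373 in the wild type. Most of the sum in the mutants without shRNA and in shRNA replicate 8 is the single row mmu-mir-208b, which comes from a gene of the slow myosin heavy chain and was 64452800.0 FPKM in that library and 1615520.0 to 3560920.0 in the other 3. The other heart rows did not share this: in shRNA replicate 8 mmu-mir-208a was 3870100.0 FPKM, against 4923870.0 to 5641750.0 in the other 3 shRNA libraries, and mmu-mir-499 was 3411740.0, against 9217590.0 to 11057100.0. Results are therefore also given without shRNA replicate 8.

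The heart rows mmu-mir-208a, mmu-mir-208b and mmu-mir-499, which lie inside myosin genes, had at least 174 reads in every library. Rows that should also mark heart muscle but come from more than 1 locus did not: mmu-mir-1-1, mmu-mir-1-2, mmu-mir-133a-1 and mmu-mir-133a-2 had at most 6 reads in a library, and mmu-mir-133a-1 was at 0 in all. The sources used here do not say how reads that match more than 1 locus were counted. This bears on the family, since miR-16-5p has 2 loci.

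The reads behind each FPKM could be recovered. In every library the small RNA values were whole multiples of 1 step that depends on the hairpin length, and this held for 99.5% of the 2135 values above 0 in rows with a RefSeq hairpin length (within 0.02 of a read for values of up to 500 reads). The steps were themselves chosen so that values come out whole, and each was kept only where it lay near a smooth curve through the other lengths. All 74 family values above 0 were whole. The recovered depth was 56004 to 248882 reads per library, and these reads carry 99.85% to 99.96% of the FPKM, so the family is measured on 352 to 1605 reads per library and some rows on very few.

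The step differs strongly between members. In mutant control virus replicate 1, a read was worth 18624 FPKM in mmu-mir-15b with its hairpin of 64 bases, 3034 FPKM in mmu-mir-15a and mmu-mir-497 (84 bases), 1802 FPKM in mmu-mir-16-1 (93 bases), 1710.1 FPKM in mmu-mir-195 (94 bases) and 1625 FPKM in mmu-mir-322 and mmu-mir-16-2 (95 bases). A read of mmu-mir-15b thus counted 11.5 times as much as a read of mmu-mir-322, while the hairpins differ 1.48 times in length. Levels of different members are therefore given below on both scales, while a comparison of 1 row between libraries does not depend on the step.

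**Figure D1:**
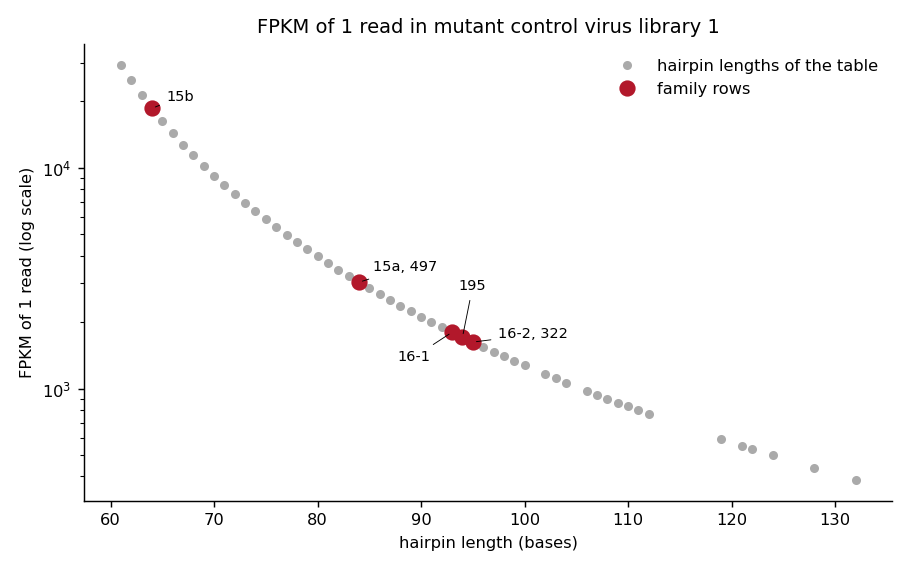
FPKM of 1 read in mutant control virus replicate 1 (vertical axis, log scale) against hairpin length in bases (horizontal axis); each grey point is a hairpin length of the table and the red points mark the family rows. The step falls steeply with length, and mmu-mir-15b sits highest among the members at 18624 FPKM.

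mmu-mir-497 led the family on both scales, and which member came next depended on the scale. By the median over 11 libraries, FPKM ran in the order mmu-mir-497 (1559010.0), mmu-mir-15b (1443350.0), mmu-mir-195 (525644), mmu-mir-322 (239953), mmu-mir-16-2 (13202), mmu-mir-15a (6511) and mmu-mir-16-1 (5504). By reads, the order was mmu-mir-497 (305), mmu-mir-195 (177), mmu-mir-322 (124), mmu-mir-15b (72), mmu-mir-16-2 (6), and mmu-mir-15a and mmu-mir-16-1 (2 each). Thus mmu-mir-15b ranked 2 in FPKM and 4 in reads. The FPKM ranges of mmu-mir-497 (741404 to 1903300.0) and mmu-mir-15b (989253 to 2226970.0) overlap, so these neighbours in the FPKM order do not differ beyond their spread. In reads, mmu-mir-497 exceeded mmu-mir-195 in all 11 libraries, by 1.23 to 2.18 times.

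**Figure D2:**
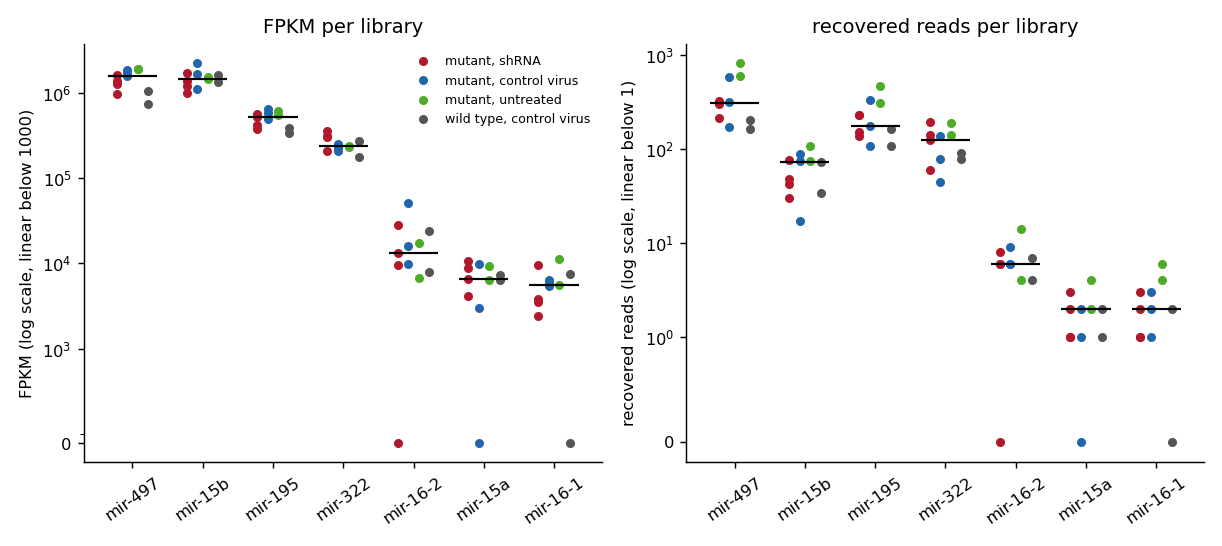
FPKM (left) and recovered reads (right) of the 7 family rows in each of the 11 small RNA libraries, on log scales that are linear near 0; points are libraries coloured by group and black lines are medians. On both scales mmu-mir-497 leads, and mmu-mir-15b ranks 2 in FPKM and 4 in reads.

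The 4 larger rows held 97.2% to 99.2% of the family's reads in every library. The other 3 rows are close to the limit of detection. mmu-mir-16-1 and mmu-mir-16-2 share their mature sequence, and how reads that match more than 1 locus were counted is not known. Their few reads therefore do not show that miR-16 is scarce in these hearts. The shares, the order and the sum of the family describe only the reads as listed. Over all 11 libraries mmu-mir-15a had 19 reads, mmu-mir-16-1 had 25 and mmu-mir-16-2 had 70, and each was listed at 0 in 1 library. They had 0 to 4, 0 to 6 and 0 to 14 reads per library, so no fold change is given for them.

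Summed over the 7 rows, the family's level as RPM (its reads scaled to the recovered reads of a library) was 4194 to 5496 in the 4 shRNA hearts, 6141 to 6285 in the 3 mutant hearts with control virus, 5982 and 6449 in the 2 untreated mutant hearts, and 3285 and 4071 in the 2 wild-type hearts. Both sets of mutants without shRNA lie above every shRNA and wild-type heart, and on this scale every shRNA heart lies above both wild-type hearts. In FPKM, shRNA replicate 7 (3052344) lies below wild-type replicate 2 (3063325). This sum is a description and was not tested. In reads it is carried largely by mmu-mir-497 and mmu-mir-195, which held 37.8% to 52.8% and 23.1% to 32.1% of the family's reads. In FPKM mmu-mir-15b weighs more than its share of reads.

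mmu-mir-497 was higher in each mutant heart without shRNA than in either wild-type heart. Its FPKM was 1616930.0, 1252990.0, 963913 and 1373920.0 in shRNA replicates 5 to 8, 1762750.0, 1559010.0 and 1851420.0 in mutants with control virus, 1903300.0 and 1902580.0 in untreated mutants, and 1043880.0 and 741404 in the wild type. As RPM these were 2600.4, 2255, 1637 and 2436 with shRNA, 3099.7, 2991 and 3089 with control virus, 3159.7 and 3299 without virus, and 1695 and 1241 in the wild type. The counting error of a library is smaller than the gap between mutants without shRNA and the wild type. The 95% Poisson interval was 2646 to 3585 RPM in the shallowest library, mutant control virus replicate 3, and 1445 to 1975 in wild-type replicate 2. Intervals of shRNA replicates 5 (2315 to 2911) and 7 (1464 to 1825) overlap the former and the latter in turn. Such intervals cover counting error only.

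mmu-mir-195, cut from the same stretch of chromosome 11, showed a like order with smaller gaps. Its FPKM was 417852, 525644, 378325 and 561550.0 in shRNA replicates 5 to 8, 572900.0, 489117 and 651483 in mutants with control virus, 551632 and 610010.0 in untreated mutants, and 383892 and 338895 in the wild type. All 5 mutant hearts without shRNA lie above both wild-type hearts, while the shRNA hearts overlap both. Across the 11 libraries Spearman's rho between mmu-mir-195 and mmu-mir-497 was 0.80, given as a description of points that share a library and its scaling.

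mmu-mir-322 and mmu-mir-15b followed other patterns. The FPKM of mmu-mir-322, the mouse counterpart of human miR-424, was 356758, 305836, 308803 and 209245 in shRNA replicates 5 to 8, 222619, 204806 and 252197 with control virus, 239953 and 233338 in untreated mutants, and 269315 and 177799 in the wild type. Its 3 highest values are those of shRNA replicates 5, 6 and 7, and replicate 8 lies within the mutants with control virus. mmu-mir-15b was 989253, 1210460.0, 1379420.0 and 1678760.0 FPKM in shRNA replicates 5 to 8, 1638920.0, 2226970.0 and 1116790.0 with control virus, 1443350.0 and 1522110.0 without virus, and 1328450.0 and 1630240.0 in the wild type. Its groups overlap throughout, and the lowest and highest control virus values rest on 17 and 74 reads. Spearman's rho between mmu-mir-15b and mmu-mir-322 was -0.86.

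**Figure D3:**
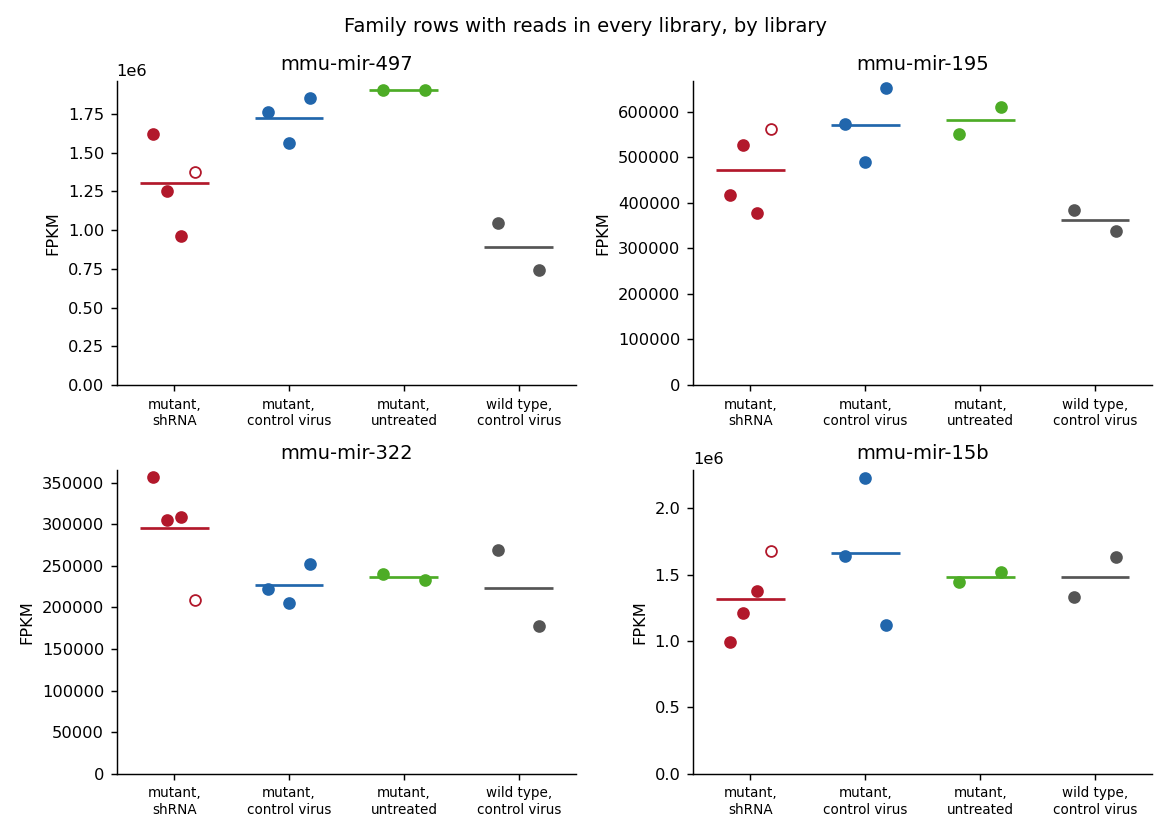
FPKM (vertical axes, from 0) of the 4 family rows with reads in every library, by group; points are libraries, lines are group means, and the open point is shRNA replicate 8. For mmu-mir-497 the untreated and control virus mutants lie above both wild-type hearts, while the groups of mmu-mir-15b overlap.

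The comparison of mutants with wild type under control virus gave the largest difference among the 4 rows with reads in every library. In small RNA its mutants were all female and its wild-type hearts all male, so transgene and sex cannot be told apart here. mmu-mir-497 averaged 1724393 ± 149931 FPKM in mutants (SD, n = 3) and 892642 ± 213883 in the wild type (SD, n = 2). The log2 difference was 0.97 (SE 0.23, 95% confidence interval 0.46 to 1.48), a 1.96-fold higher level, with an adjusted p of 0.105 by limma with Benjamini-Hochberg adjustment over 280 rows. It did not pass the threshold of 0.05. mmu-mir-195 averaged 571167 ± 81197 FPKM in mutants and 361394 ± 31818 in the wild type, a log2 difference of 0.65 (SE 0.22, 95% confidence interval 0.17 to 1.14) with a limma adjusted p of 0.182. For mmu-mir-15b the log2 difference was 0.12 (95% confidence interval -0.54 to 0.77) and for mmu-mir-322 0.04 (-0.56 to 0.65).

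In this comparison limma called 0% of the 280 rows and 0 of the 7 members, with 35 rows at an unadjusted p under 0.05. The groups did not overlap in 28.2% of all rows and in 2 of the 7 members. The mmu-mir-497 value lies near the threshold. Without shRNA replicate 8, which enters here only through the shared spread, its limma adjusted p was 0.0348. On the recovered reads, an alternative added after seeing the data, limma voom called 6 rows including mmu-mir-497, with a log2 difference of 1.09 and an adjusted p of 0.0407. With sex as a covariate, which rests on the shRNA and untreated hearts alone, the difference was 0.89 and the limma adjusted p 0.778. Under quantile normalization they were 0.65 and 0.256. Over all alternatives the difference of mmu-mir-497 stayed between 0.65 and 1.21, with adjusted p from 0.0348 to 0.778.

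In FPKM, markers of every cell type listed differed in this comparison in the small RNA. On that scale the sums of all 6 small RNA marker lists did not overlap between mutants with control virus and the wild type. Nor did those of 6 of the 7 polyA lists. Such separation was common: among single rows it held for 28.2% in small RNA and 42.1% in polyA. It also depends on the scale. As RPM, mmu-mir-143, which makes up most of the smooth muscle sum, overlapped. It was 172023 to 185559 RPM in mutants and 177496 to 207716 in the wild type. Fibroblast lists were higher. The 4 microRNA rows summed to 117151 to 151609 FPKM in mutants with control virus and 52258 to 59558 in the wild type. Most of this sum was mmu-mir-199b, at 102507 to 144901 FPKM in mutants and 47032 to 55520 in the wild type. mmu-mir-214 overlapped, mmu-mir-199a-2 was at 0 in the libraries compared, and mmu-mir-199a-1 was at 0 in all. The 5 polyA genes summed to 1525 to 2407 FPKM in mutants and 712 to 1011 in the wild type. Sums of the leukocyte lists were also higher, at 34744997 to 51101980.0 FPKM in mutants and 32861608 to 33411879 in the wild type for 4 microRNA rows, and at 61.9 to 107.5 FPKM in mutants and 40.2 to 49.8 in the wild type for 5 polyA genes. The microRNA rows were split. mmu-mir-142 was higher, at 26967800 to 40476600 FPKM in mutants and 12679700 to 16957300 in the wild type. mmu-mir-150 was lower, at 7157630 to 11617200 in mutants and 15597700 to 18850800 in the wild type. mmu-mir-155 and mmu-mir-223 overlapped.

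Other lists were lower in these mutants. Endothelial polyA genes summed to 182 to 243 FPKM in mutants with control virus and 327 to 376 in the wild type, and the red cell microRNA rows to 11812590.0 to 20985630.0 FPKM in mutants and 22048380.0 to 25800290.0 in the wild type. The endothelial microRNA and both smooth muscle lists were lower in FPKM as well, and the polyA cell cycle list was higher, while the red cell polyA list overlapped.

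Heart muscle rows moved both ways. mmu-mir-208b was 37923600.0 to 56931300.0 FPKM in mutants with control virus and 1668100.0 to 1960730.0 in the wild type, which makes the cardiomyocyte microRNA sum higher in mutants. mmu-mir-208a was 2887810.0 to 4305360.0 FPKM in mutants and 5779960.0 to 7249990.0 in the wild type, and mmu-mir-499 was 2423720.0 to 2628120.0 in mutants and 5773610.0 to 7554020.0 in the wild type. The 5 cardiomyocyte polyA genes summed to 32716 to 50265 FPKM in mutants and 52209 to 71629 in the wild type. The part of these cells in the levels of mmu-mir-497 and mmu-mir-195 was not tested.

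In mutants, the shRNA virus was set against the control virus. mmu-mir-497 averaged 1301938 ± 271452 FPKM with shRNA (SD, n = 4) and 1724393 ± 149931 with control virus (SD, n = 3), a log2 difference of -0.43 (SE 0.19, 95% confidence interval -0.85 to 0.00, limma adjusted p = 0.331). mmu-mir-195 differed by -0.29 (95% confidence interval -0.70 to 0.12), mmu-mir-15b by -0.31 (-0.85 to 0.24) and mmu-mir-322 by 0.36 (-0.15 to 0.87), each with overlapping groups. limma called 0% of the 280 rows and 0 of the 7 members, with 42 rows at an unadjusted p under 0.05, and limma voom called 4 rows and 0 members. The groups did not overlap in 9.29% of rows and in 0 of the members. Of the marker lists, 1 of 6 in small RNA and 2 of 7 in polyA did not overlap, beside 31.2% of single polyA genes. Fibroblast microRNA rows summed to 45314 to 85535 FPKM with shRNA and 117151 to 151609 with control virus. Most of this sum was mmu-mir-199b, at 42887 to 76625 FPKM with shRNA and 102507 to 144901 with control virus. mmu-mir-214 overlapped, and mmu-mir-199a-2 was 0 with control virus and reached 3564 FPKM with shRNA. In polyA, endothelial genes summed to 374 to 574 FPKM with shRNA and 182 to 243 with control virus. Cardiomyocyte genes summed to 68979 to 118441 with shRNA and 32716 to 50265 with control virus. These polyA sums include differences in library scale, which were not removed. In shRNA replicate 8, the lowest cardiomyocyte sum with shRNA, the median gene lay 0.80 log2 units above its mean over all polyA libraries. In mutant control virus replicates 1 to 3 it lay -0.19, 0.13 and -0.34 from that mean. The part of these cells in the members' differences was not tested.

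Without shRNA replicate 8 limma called 26 rows in this comparison but still 0 members. The log2 difference of mmu-mir-322 was then 0.52 (adjusted p = 0.130), that of mmu-mir-497 -0.46 (0.210), that of mmu-mir-195 -0.38 (0.220) and that of mmu-mir-15b -0.43 (0.310). mmu-mir-322 is on the X chromosome and the remaining 3 shRNA hearts are male, whereas the control virus hearts are female. With sex as a covariate its difference was 0.07, with all 4 shRNA hearts in the fit. That covariate rests in part on shRNA replicate 8, the only female shRNA heart. It cannot set sex apart from other traits of that heart.

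The control virus itself was compared with no virus in mutants. mmu-mir-497 averaged 1724393 ± 149931 FPKM with control virus and 1902940.0 ± 509 without virus, a log2 difference of -0.15 (95% confidence interval -0.65 to 0.36). The log2 difference was -0.03 for mmu-mir-195, -0.07 for mmu-mir-322 and 0.11 for mmu-mir-15b. limma called 0% of rows and 0 members, with 9 rows at an unadjusted p under 0.05, and limma voom called 0 rows. In 1 member, mmu-mir-497, the groups did not overlap, beside 12.5% of all rows.

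shRNA-treated mutants were also set against the wild type. mmu-mir-497 differed by 0.54 (SE 0.22, 95% confidence interval 0.06 to 1.02, limma adjusted p = 0.658), mmu-mir-195 by 0.37, mmu-mir-322 by 0.41 and mmu-mir-15b by -0.19, and the groups of each overlapped. limma called 0% of rows and 0 members, with 17 rows at an unadjusted p under 0.05, and limma voom called 0 rows. The groups did not overlap in 14.3% of all rows. The comparisons share the control virus mutants, the shRNA mutants or the wild-type hearts, so the opposite signs of mmu-mir-497 in the mutant and shRNA comparisons are not independent.

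**Figure D4:**
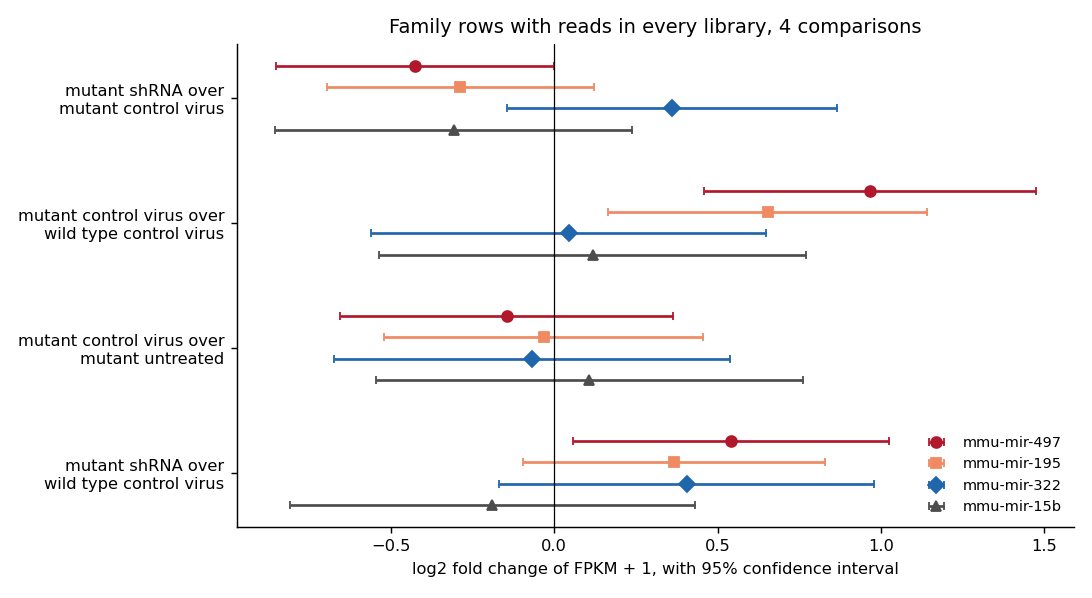
Log2 fold changes of FPKM + 1 (horizontal axis) with 95% confidence intervals from the limma fit for the 4 family rows with reads in every library, in 4 comparisons. The intervals of mmu-mir-497 and mmu-mir-195 lie above 0 for mutants over wild type under control virus, and 0 members passed the adjusted threshold in any comparison.

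Rows of the same genomic cluster as mmu-mir-322 were scarce. mmu-mir-503 had 1 to 8 reads and mmu-mir-542 had 4 to 18 reads per library. mmu-mir-351, mmu-mir-450a-1, mmu-mir-450a-2 and mmu-mir-450b had at most 2 reads in any library, and mmu-mir-450a-1 had 0 in all. mmu-mir-542 was 24979 to 35296 FPKM in shRNA hearts and 41548 and 65721 in wild-type hearts, without overlap, a log2 difference of -0.79 that did not pass the limma test (adjusted p = 0.673).

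The 5 other rows most like the summed family FPKM over the 11 libraries, by Spearman's rho, were mmu-mir-130b (0.94), mmu-mir-199b and mmu-mir-541 (0.85 each), mmu-mir-21 (0.85) and mmu-mir-142 (0.83). The FPKM sum gives mmu-mir-15b more weight than its reads do, and values of a library share its scaling. mmu-mir-130b rests on 3 to 15 reads per library. mmu-mir-199b is known from fibroblasts, mmu-mir-142 from blood cells, and mmu-mir-21 is raised in stressed hearts.

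Of 8 genes looked for as hosts or neighbours of the hairpins, 4 were in the polyA table. Smc4, the host of mmu-mir-15b and mmu-mir-16-2, was 10.3, 13.6, 12.6 and 32.8 FPKM in shRNA replicates 5 to 8, 17.05, 19.7 and 12.6 with control virus, 19.3, 13.7 and 12.6 in untreated mutants, and 10.6, 13.9 and 11.5 in the wild type. All groups overlap, and shRNA replicate 8 stands above the rest. Its log2 difference was -0.05 for shRNA against control virus (limma adjusted p = 0.903) and 0.41 for mutants against wild type (adjusted p = 0.479). Dleu2, the host of mmu-mir-15a and mmu-mir-16-1, overlapped between all groups, at 3.13 to 7.98 FPKM with shRNA, 3.60 to 6.92 with control virus, 4.55 to 6.04 without virus and 4.29 to 6.84 in the wild type.

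Trim59, a gene beside Smc4, was 0.85, 1.99, 0.583 and 4.71 FPKM in shRNA replicates 5 to 8, 3.25, 2.89 and 1.63 with control virus, 2.32, 2.01 and 1.96 without virus, and 0.609, 0.875 and 0.762 in the wild type. All 6 mutants without shRNA lie above the wild type. Between control virus mutants and wild type, 42.1% of all polyA genes tested did not overlap. Against wild type, the mutants with control virus differed by a log2 value of 1.01 (SE 0.38) with a limma adjusted p of 0.0989. That p was 0.00628 without shRNA replicate 8, where only the shared spread changes, and 0.0199 after the library medians were aligned. mmu-mir-15b, which lies in the neighbouring Smc4, differed by 0.12 in the same comparison. Between shRNA and control virus the log2 difference of Trim59 was -0.40 (limma adjusted p = 0.371), and -0.77 without shRNA replicate 8 (adjusted p = 0.0207). C430049B03Rik stayed under 1 FPKM in all 13 libraries and was not tested.

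**Figure D5:**
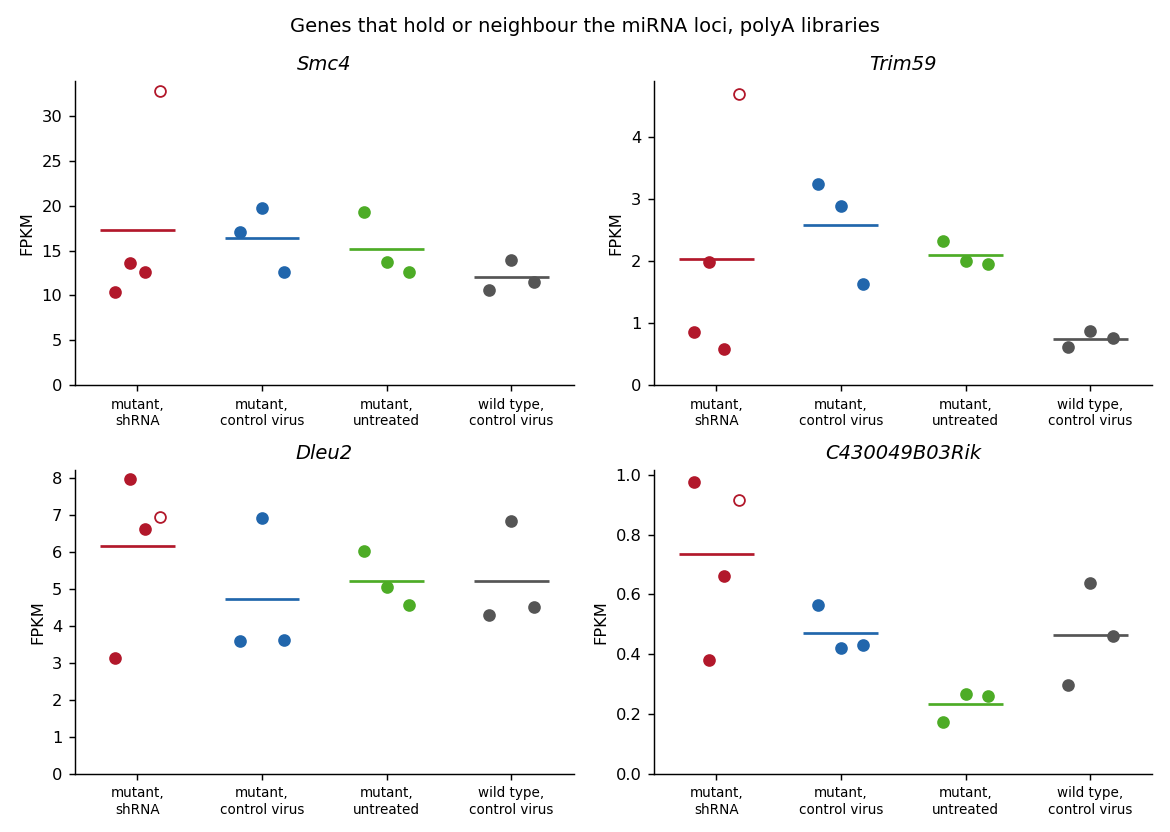
FPKM (vertical axes, from 0) of the 4 genes that hold or neighbour the hairpins in the 13 polyA libraries, by group; points are libraries, lines are group means, and the open point is shRNA replicate 8. That library is highest for Smc4 (32.8 FPKM) and Trim59 (4.71 FPKM), and the wild-type hearts are lowest as a group for Trim59.

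Genes that have been described as targets of the family in mouse, rat or human cells were then read in the polyA libraries. No target site was searched, and messenger RNA level is only part of what a microRNA can change. Of 35 such genes 33 were tested. The polyA libraries differ in overall scale: the median log2 difference of all 12980 genes tested was 0.47 for shRNA against control virus and -0.14 for mutants against wild type, and the medians of the target list were 0.47 and -0.14.

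In mutants with shRNA against those with control virus, limma called 11 of the 33 target genes, all higher, beside 35% of all genes (4330 higher and 215 lower). The share of the list is near that background. Insr, the insulin receptor, averaged 84.02 ± 14.7 FPKM with shRNA (SD, n = 4) and 42.3 ± 2.71 with control virus (SD, n = 3), a log2 difference of 0.96 (SE 0.21, limma adjusted p = 0.00259). Vegfa, the endothelial growth factor, averaged 368 ± 90.8 and 181 ± 19.1 FPKM in the same groups (log2 difference 0.98, limma adjusted p = 0.00657). Mapk14, the p38 stress kinase, averaged 79.0 ± 12.5 FPKM with shRNA and 43.7 ± 9.41 with control virus. Arl2, a small GTPase, averaged 145.7 ± 57.0 FPKM with shRNA and 64.9 ± 8.65 with control virus.

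These directions are relative to an overall shift. With the library medians aligned, 6 target genes passed, 1 higher and 5 lower, beside 24.1% of all genes (1547 higher and 1579 lower). Vegfa was the 1 higher of the genes named above, with a log2 difference of 0.47 (limma adjusted p = 0.0333). The log2 differences of Insr, Mapk14 and Arl2 were 0.46, 0.34 and 0.58 (adjusted p = 0.0588, 0.0785 and 0.0957) and did not pass.

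Among the cell cycle targets, Wee1, a kinase that holds back entry into mitosis, was 15.6, 21.5, 20.2 and 20.3 FPKM in shRNA replicates 5 to 8, 9.99, 12.7 and 11.4 with control virus, 14.3, 10.3 and 10.7 without virus, and 17.2, 20.4 and 20.3 in the wild type. It was higher with shRNA than with control virus (log2 difference 0.72, limma adjusted p = 0.0135). Under control virus it was lower in mutants than in the wild type (log2 difference -0.72, limma adjusted p = 0.0488). After alignment the shRNA difference of Wee1 was 0.24 (adjusted p = 0.160).

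In mutants against wild type under control virus limma called 2 of the 33 target genes, both lower, beside 9.5% of all genes. The second was Fgf2, a fibroblast growth factor, at 3.56 ± 0.629 FPKM in mutants and 7.49 ± 0.372 in the wild type (SD, n = 3 each; log2 difference -0.90, limma adjusted p = 0.0329). Leaving out any 1 of the 6 libraries compared ended the call of Wee1, and any of 5 of them that of Fgf2, and with sex as a covariate 0 target genes passed. With the library medians aligned, 10 target genes passed, 6 higher and 4 lower, beside 24.3% of all genes (1634 higher and 1516 lower).

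The cyclins and Bcl2 did not pass in either comparison. Bcl2, which restrains cell death, was 4.76, 5.64, 7.75 and 34.1 FPKM in shRNA replicates 5 to 8, 18.7, 13.8 and 10.7 with control virus, 10.2, 10.7 and 10.7 without virus, and 4.54, 5.56 and 7.78 in the wild type. Replicate 8 stands far above the other shRNA hearts. Without it, the log2 difference of Bcl2 was -1.12 between shRNA and control virus (limma adjusted p = 0.000731) and 1.14 between mutants and wild type (adjusted p = 0.00123). With all libraries the limma values were -0.54 (adjusted p = 0.337) and 1.14 (adjusted p = 0.132), and with sex as a covariate the first was 0.23. That covariate also draws on replicate 8, the only female shRNA heart.

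Ccnd1 and Ccnd2, the cyclins of early G1, differed by -0.04 and -0.12 on the log2 scale between shRNA and control virus, and by 0.55 and 0.59 between mutants and wild type. Ccne1, which acts at entry into S phase, differed by 0.28 and 0.02. Chek1, a checkpoint kinase, averaged under 1 FPKM and was not tested. In control virus against no virus limma called 0% of the 12980 polyA genes (572 at an unadjusted p under 0.05) and 0 target genes, and in shRNA mutants against wild type 0.108% of genes and 0 target genes.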

How the data were processed

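Small RNA and polyA libraries of mouse hearts were deposited by the authors as FPKM, 1 table for each kind of library. The submitters' processing notes name FastQC 0.11.2, STAR 2.40, Cufflinks 2.2.1, Cuffdiff and mouse build mm9 without their roles; no annotation or filter is named. Replicates are separately numbered hearts, and p-values measure the spread between them. Values were taken as log2(FPKM + 1), so a fold change understates that of low genes. Rows with a mean of at least 1 FPKM were tested in 1 linear model over the 4 groups with limma 3.58.1 in R 4.3.3 (eBayes with a trend, two-sided), with Benjamini-Hochberg adjustment over all rows of a comparison and a threshold of 0.05. The fit was tested on simulated data.

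Reads were recovered from the steps in the FPKM values with RefSeq hairpin lengths; 1 row that was not whole was left out. Intervals of counts are exact 95% Poisson intervals. In the polyA libraries the depth is unknown. Alternatives were a larger or smaller pseudocount, other filters, quantile normalization, aligned medians, the compared groups only, sex as a covariate, the replicate number as a block and leaving out each library; limma voom on recovered reads was added after seeing the data. Named are the members, rows of the same clusters, host or neighbour genes, up to 4 called target genes each way with the smallest p, 6 fixed cell cycle and survival targets, and the 5 rows most like the family's sum. Members, lists and tests were chosen with earlier results of these data known. Coordinates belong to the RefSeq sequences on GRCm38.p6, not to the deposited tables.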

Additional observations from a re-analysis of the deposited data

Results flagged for a closer look

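Among 26 sets of 4 shRNA libraries, each set being the values of 1 named row or gene, 3 held a value far from the other 3. For normally distributed values chance flags about 1 in 20, a rate that need not hold for rows of few reads. Smc4 was 32.8 FPKM and Bcl2 34.1 FPKM in shRNA replicate 8, both the highest of their group. mmu-mir-351 was 2605 FPKM in shRNA replicate 7, which is 2 reads, and 0 in the other shRNA libraries. A set with only 1 value above 0 is always flagged.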

How the results depend on the processing

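Small RNA rows called. For shRNA against control virus in mutants they numbered 1 with no filter, 1 with the compared groups only and 4 by limma voom on recovered reads, and 0 to 26 when 1 library was left out, the 26 without shRNA replicate 8. For mutants against wild type under control virus they numbered 6 with the compared groups only and 6 by voom, of which 1 was a member, and 1 to 19 with 1 library left out, the 19 without shRNA replicate 8, with 0 to 1 member. Leaving out 1 library gave 0 to 12 for control virus against no virus (12 without untreated replicate 9) and 0 to 6 for shRNA mutants against wild type (6 without wild-type replicate 3, with 0 to 1 member). The member called without wild-type replicate 2, in both comparisons with the wild type, was mmu-mir-16-1, whose lone wild-type library was then the one at 0 and was assumed to vary like the others; mmu-mir-497 was the member in the other cases. The voom call is marginal, since with a wrong step at 1 hairpin length, corrected before these values were made, voom had called 0 rows. Apart from voom and left-out libraries, the alternatives called 0 members.

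Signs turned only for differences that had not passed. For mutants against wild type mmu-mir-15b was -0.029 under quantile normalization, -0.22 with sex and -0.12 to 0.38 with 1 library left out, and mmu-mir-322 was -0.0092 with medians aligned and -0.25 to 0.34. For control virus against no virus mmu-mir-15b was -0.059 with sex and -0.13 to 0.37 with 1 library left out, mmu-mir-322 was 0.13 with sex and -0.15 to 0.0020, and mmu-mir-195 was 0.029 by voom and -0.13 to 0.075. The cause was not tested. For shRNA against control virus, Dleu2 was -0.11 and Ccne1 -0.063 with medians aligned; Smc4, Ccnd1, Ccnd2 and Bcl2 were 0.22, 0.23, 0.43 and 0.23 with sex as a covariate, and with 1 library left out Smc4 was -0.39 to 0.13, Ccnd1 -0.28 to 0.18 and Ccnd2 -0.52 to 0.15. For mutants against wild type Ccne1 was -0.027 with sex and -0.083 to 0.16, and Dleu2 -0.41 to 0.033.

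PolyA genes called for shRNA against control virus numbered 2624 with sex (6 target genes, as with medians aligned) and 2055 to 7164 with 1 library left out (4 to 16 target genes). For mutants against wild type they numbered 796 with no filter (1 target gene), 3150 with medians aligned (10), 126 with sex (0), and 179 to 2755 with 1 library left out (0 to 6). Control virus against no virus gave 1 with no filter and 0 to 7, and shRNA mutants against wild type 50 with sex and 0 to 256 (0 to 1 target gene). Of the polyA calls for mutants against wild type, medians aligned gave 1634 higher and 1516 lower, against 279 and 954 as deposited.

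With the replicate number as a block, mutants against wild type gave 797 polyA genes, 0 target genes and 0 small RNA rows. Same-numbered hearts did not deviate together (correlations 0.07 and -0.03 in small RNA, -0.20 and -0.11 in polyA), so they share only a number. With 56004 to 248882 reads per library, mmu-mir-15a, mmu-mir-16-1 and mmu-mir-16-2 rest on 0 to 14 reads each.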
